A study of Mus musculus with 15 samples.

Results

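Transcript levels of 9 homeobox genes were followed through 15 mouse bone marrow samples. The genes are Hoxa3, Hoxa5, Hoxa7, Hoxa9 and Hoxa10 of the Hoxa cluster, Meis1, Pbx2 and Pbx3 of the TALE class, and Nkx2-3. They were taken as the rows of the table of normalized counts that carry these names, 9 of 38315 rows. All 9 passed the filter on low values, at least 10 normalized counts in at least 4 samples, which kept 18941 genes. Nkx2-3 passed it through the lineage-negative libraries, since outside them it reached 10 in 1 library. The leukaemic group held bone marrow with acute myeloid leukaemia (AML) from 7 transgenic mice of the genotype NUP98-NSD1/FLT3-ITD. NUP98-NSD1 is a fusion of a nucleoporin with a histone methyltransferase, and FLT3-ITD is a receptor tyrosine kinase with a duplicated internal stretch. The reference groups were wild type marrow, 4 samples of whole marrow and 4 of lineage-negative marrow, from which most mature blood cells have been removed. The promoter that drives the transgenes, the strain, and the age of the mice are not given in the sources used here. Nothing in the labels says that the 4 samples of a wild type group came from separate mice, so p-values measure the spread between these samples, which may be technical. The labels also do not say whether a whole and a lineage-negative sample came from the same mouse.

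HOXA proteins are transcription factors with a homeodomain. They bind DNA together with PBX and MEIS proteins, homeodomain proteins of the TALE class that sharpen the choice of DNA site and reach the nucleus in part as a complex. In normal marrow Hoxa9 and Meis1 are active in stem and progenitor cells and are switched off as blood cells mature. Persistent activity of HOXA genes with MEIS1 is a known feature of leukaemias with NUP98 fusions. NKX2-3 belongs to the NK family of homeodomain proteins and is best known from the development of spleen and gut vessels.

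Levels are given as normalized counts, estimated read counts divided by a size factor for each library. The estimated depth was 20.3 to 35.1 M reads (M, mega) in AML, 11.4 to 17.2 M in whole marrow and 20.3 to 28.1 M in lineage-negative marrow, and 3 reads, taken as the floor of detection, corresponded to 1.96 to 4.09 normalized counts. The median log2 difference of all genes tested was 0.67 between AML and whole marrow and 0.59 between lineage-negative and whole marrow, and it was −0.01 and −0.09 after scaling by trimmed means of M values (TMM). Differences of the 9 genes against whole marrow are therefore given with both scalings. Whole marrow also carried a low signal from genes that marrow does not use: 1750 olfactory and vomeronasal receptor genes had 1.88 to 3.54 normalized counts per kb of exon there, against 0.0969 to 0.137 in lineage-negative marrow. In AML this signal was highest in replicate 6, with 0.996, then in replicate 5, with 0.344, and the others had 0.120 to 0.191. The level that this signal would give a gene of a member's exonic length is called its background below. Its part in the differences was tested only by subtracting it.

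The labelled groups were checked against marker genes. Stem and progenitor markers (Kit, Cd34, Gata2, Hlf, Mecom, Slamf1 and Ly6a) summed to 13605 to 17730 normalized counts in lineage-negative marrow, 2770 to 5414 in AML and 1189 to 2274 in whole marrow, with all 7 above the floor in every library. Ly6a ran the other way, with means of 61.7 in lineage-negative marrow, 180 in whole marrow and 1069 in AML. Against whole marrow Ly6a and Cd34 were called higher in AML, beside 27.3% of all genes tested, and Gata2 lower, beside 11.3%. The median log2 difference of the 7 was −0.18, beside 0.67 over all genes tested. With TMM 1 was called higher, beside 4.73%, and 3 lower, beside 16%. Neutrophil markers summed to 694 to 15451 in lineage-negative marrow, 378687 to 1300480 in AML and 403154 to 1086860 in whole marrow. Erythroid markers summed to 4507 to 33210, 303 to 22179 and 574597 to 1399910 in the same order. In the AML libraries 4 of the 6 erythroid markers were above the floor throughout. Megakaryocyte markers summed to 2090 to 3174, 65.1 to 423 and 439 to 1092, and all 4 were called lower in AML than in either normal group. B cell markers summed to 296 to 523, 465.7 to 6262 and 3287 to 7182. In AML all 5 were called lower than in whole marrow, beside 11.3% of all genes, and 4 higher than in lineage-negative marrow, beside 17.7%. T and NK cell markers summed to 1307 to 1864, 486 to 2681 and 514 to 1004. In lineage-negative marrow Nkg7 made up 1437 of their mean sum of 1529 normalized counts. The means of Cd3e, Cd3d and Cd3g were 11.8, 14.8 and 19.3 there. They were 54.3, 73.7 and 81.4 in whole marrow and 207, 172 and 353 in AML. Stroma and endothelium markers summed to 137 to 838, 261 to 1579 and 836 to 1763 in the same order of groups as the other sums. These cell types moved with the groups, and their part in the differences of the homeobox genes was not tested. In bulk RNA, fewer cells of a type and less RNA per cell cannot be told apart.

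The DNA just upstream of a RefSeq start of transcription is printed for 4 of the genes, because the comparisons turn on these 4. For Hoxa7, Hoxa9 and Hoxa10 that start is internal, so the stretch printed lies within the annotated span of the gene. Hoxa7, Hoxa9 and Hoxa10 lie side by side in the cluster and Meis1 on another chromosome. Sequences are those of RefSeq for GRCm38.p6, and 8 of the 9 members matched an entry. Each line runs 5′ to 3′ and lies within the 250 bases before that start. It is cut back past the annotated exonic base farthest from the start. So 112 bases are shown for Hoxa7, 234 for Meis1 and 250 for Hoxa9 and for Hoxa10. Of the 2 listed starts of Hoxa10, the one nearer to Hoxa9 is shown. Capitals mark matches to TTTAT on either strand, a core recognised by HOX proteins of the posterior groups. The coordinates in the lines belong to that build alone.
Hoxa7 (chr6:52218712-52218823, minus strand): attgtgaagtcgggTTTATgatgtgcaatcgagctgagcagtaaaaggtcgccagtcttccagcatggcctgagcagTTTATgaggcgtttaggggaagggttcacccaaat
Hoxa9 (chr6:52227371-52227620, minus strand): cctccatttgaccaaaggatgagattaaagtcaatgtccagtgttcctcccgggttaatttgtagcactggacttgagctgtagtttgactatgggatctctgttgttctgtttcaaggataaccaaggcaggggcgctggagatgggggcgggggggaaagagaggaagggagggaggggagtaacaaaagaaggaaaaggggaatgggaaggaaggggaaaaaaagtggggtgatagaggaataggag
Hoxa10 (chr6:52234940-52235189, minus strand): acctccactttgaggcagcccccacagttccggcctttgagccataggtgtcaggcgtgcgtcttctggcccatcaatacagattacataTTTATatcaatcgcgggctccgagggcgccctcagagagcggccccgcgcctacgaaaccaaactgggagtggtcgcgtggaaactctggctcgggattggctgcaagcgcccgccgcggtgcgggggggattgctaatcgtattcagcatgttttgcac
Meis1 (chr11:19018986-19019219, minus strand): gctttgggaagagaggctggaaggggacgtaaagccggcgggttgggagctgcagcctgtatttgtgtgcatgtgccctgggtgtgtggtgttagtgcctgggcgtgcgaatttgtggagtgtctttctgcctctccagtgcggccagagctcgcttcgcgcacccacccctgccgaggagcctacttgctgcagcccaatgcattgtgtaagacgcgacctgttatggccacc
The Hoxa7 stretch held 2 matches to TTTAT and the Hoxa10 stretch 1, while the stretches of Hoxa9 and Meis1 held none. Of 32851 RefSeq upstream windows of the same 250 bases, 37.26% held TTTAT. The MEIS core TGACAG was found in 15.86% of all windows and the PBX-HOX motif TGATTNAT in 2.825%, both strands counted, and neither was present in these 4 windows. The PBX-HOX motif contains TTTAT where its N is T. The full windows differed in CpG pairs, with 3 for Hoxa9, 7 for Hoxa7, 13 for Meis1 and 20 for Hoxa10, where the median of all windows was 6. These are descriptions of the letters and not evidence of binding.

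The level of Hoxa9 in AML lay between those of the normal groups. Hoxa9, a driver of progenitor self-renewal (ENSMUSG00000038227, chromosome 6, 52200080 to 52208069, minus strand, in the table's coordinates), had 69.1, 83.1, 55.3 and 39.6 normalized counts in the 4 whole marrows. It had 314, 471, 396 and 373 in the 4 lineage-negative marrows. In AML its lowest value was 63.7, its median 137 and its highest 227. Every AML library was below every lineage-negative library, and 6 of 7 were above every whole marrow library, the exception being replicate 3. The means were 144 ± 52.4 in AML (n = 7, SD), 61.8 ± 18.6 in whole marrow (n = 4, SD) and 389 ± 65.1 in lineage-negative marrow (n = 4, SD). By limma with Benjamini-Hochberg adjustment over all genes kept, Hoxa9 fell by 1.5 on the log2 scale against lineage-negative marrow (SE 0.29, adjusted p = 0.000299), and by 1.49 with TMM. Against whole marrow it was called higher with the deposited scaling, at 1.17 (SE 0.29, adjusted p = 0.00193). It was not called with TMM, at 0.48 (adjusted p = 0.233), nor without whole marrow replicate 4, at 0.98, nor without AML replicates 5 and 6, at 0.93. Background would give 10.5 to 19.8 normalized counts of Hoxa9 in whole marrow.

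Hoxa7 stood nearer to lineage-negative marrow than Hoxa9 did. Hoxa7 (ENSMUSG00000038236, chromosome 6, 52191471 to 52198834, minus strand), a central gene of the cluster, had 31.1, 32.2, 58.4 and 31.5 normalized counts in whole marrow and 233, 242, 194 and 161 in lineage-negative marrow. In AML the values ran from 83.3 through a median of 157 to 222. All 7 AML libraries were above every whole marrow library, and 4 of 7 were below every lineage-negative library, so the latter groups overlapped. Its mean in leukaemia,  150 ± 48.6 (n = 7, SD), was 72.3% of the lineage-negative mean, against 37.1% for Hoxa9. Hoxa7 rose against whole marrow by a log2 step of 1.93 (SE 0.28, adjusted p = 1.54e-05 by limma) and by 1.24 with TMM, called with both scalings. Against lineage-negative marrow the log2 difference was −0.52 (SE 0.28, adjusted p = 0.141), which was not called. An antisense RNA, Hoxaas3, covers 586 bases or 20.4% of the exonic length of Hoxa7 in the GRCm38 annotation, and the strand used in counting is not given in the sources used here. Hoxaas3 itself had 12.3 ± 7.59 normalized counts in AML (n = 7, SD) and 6.62 ± 2.77 in lineage-negative marrow (n = 4, SD).

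Hoxa10 and Hoxa5 were lower in AML than in lineage-negative marrow and low in whole marrow too. Hoxa10 (ENSMUSG00000000938, chromosome 6, 52208177 to 52217834, minus strand), which lies beside Hoxa9, had 29.95, 42.3, 41.4 and 32.6 normalized counts in lineage-negative marrow and 14.4, 10.7, 15.7 and 12.3 in whole marrow. In AML it ran from 1.27, under the floor, through a median of 10.1 to 25.3. All 7 AML libraries were below every lineage-negative library, at a log2 difference of −1.99 (SE 0.50, adjusted p = 0.00285 by limma). Against whole marrow the difference was −0.59 (adjusted p = 0.310) and −1.23 with TMM (adjusted p = 0.0687). Background in whole marrow would give Hoxa10 6.14 to 11.6 normalized counts, beside the 10.7 to 15.7 measured.

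Hoxa5 (ENSMUSG00000038253, chromosome 6, 52178734 to 52181567, minus strand), a gene of the middle of the cluster, had 36.3, 45.8, 26.4 and 42.4 normalized counts in lineage-negative marrow and 7.18, 6.70, 10.4 and 24.6 in whole marrow. Its AML values ran from 7.35 through a median of 16 to 30.2, and 6 of 7 were below every lineage-negative library. The log2 difference from lineage-negative marrow was −1.28 (SE 0.41, adjusted p = 0.0151 by limma), and the call was lost without lineage-negative replicate 2, at −1.18 (adjusted p = 0.0505), and with background subtracted, at −1.35 (adjusted p = 0.0765). From whole marrow it differed by 0.42 (adjusted p = 0.379) and by −0.22 with TMM. With background subtracted that difference was 1.48 (adjusted p = 0.0337), and Hoxa5 was called higher. Background would give Hoxa5 3.52 to 6.64 normalized counts in whole marrow.

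Hoxa3 was called in no comparison with the deposited scaling. Hoxa3 (ENSMUSG00000079560, chromosome 6, 52146042 to 52190316, minus strand), an anterior gene of the cluster, had 28.7, 18.8, 11.3 and 14.0 normalized counts in whole marrow, where background would give 11.3 to 21.3, and 31.9, 22.4, 22.8 and 34.3 in lineage-negative marrow. The AML values spread from 2.47 to 32.5 with a median of 25.6, and the 3 groups overlapped. Log2 differences were −0.06 between AML and whole marrow (−0.72 with TMM), −0.70 between AML and lineage-negative marrow and 0.64 between the normal groups (−0.03 with TMM). With background subtracted they were 1.92 against whole marrow (adjusted p = 0.0478) and 2.91 between the normal groups (adjusted p = 0.0116), so Hoxa3 was then called higher in AML and in lineage-negative marrow than in whole marrow. The span of Hoxa3 in the annotation takes in Hoxa4, Hoxa5 and Hoxa6, with which it shares no exonic base, and 503 of its exonic bases lie opposite the antisense RNA Hoxaas2.

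**Figure D1:**
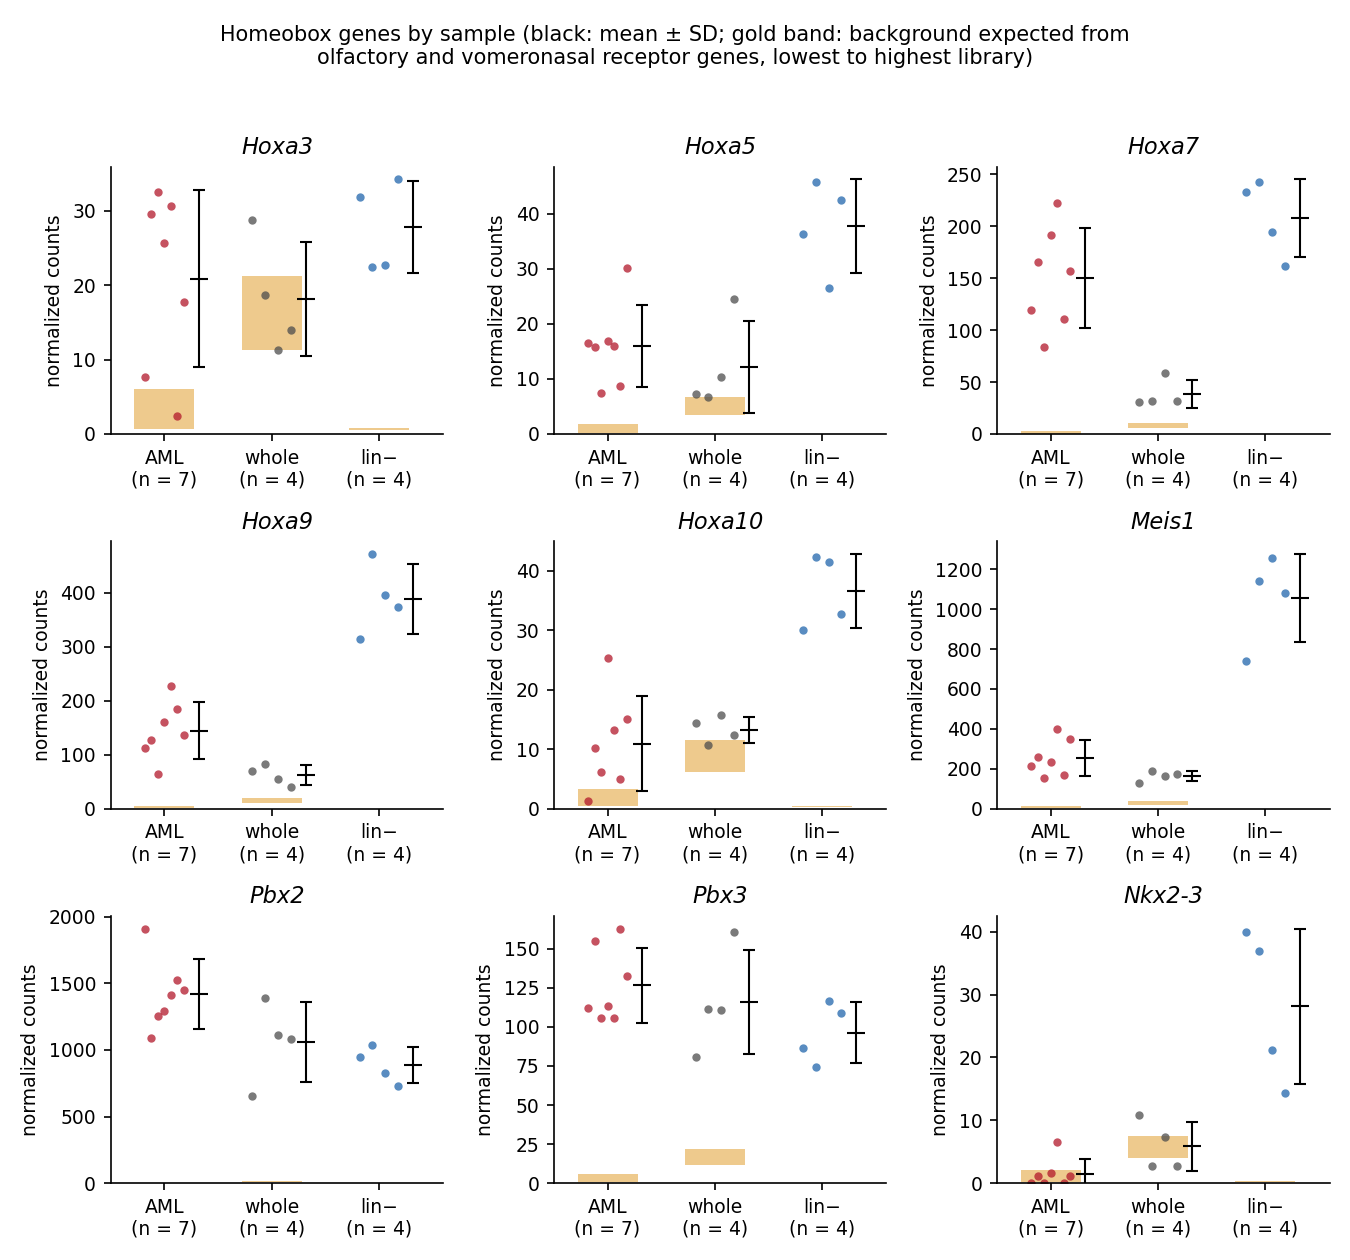
Normalized counts of the 9 genes in each of the 15 samples (y axis, linear from 0, scaled for each gene), by group on the x axis, with means and SDs in black and the expected background in gold. Hoxa9, Hoxa10, Meis1 and Nkx2-3 have all AML points below all lineage-negative points, while the whole marrow points of Hoxa3, Hoxa10 and Nkx2-3 lie at or near the background band.

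Meis1, the partner of HOXA9 that raises its leukaemic activity, had the lowest AML level relative to lineage-negative marrow after Nkx2-3. Meis1 (ENSMUSG00000020160, chromosome 11, 18829817 to 18968985, minus strand) had 741, 1141, 1257 and 1080 normalized counts in lineage-negative marrow and 129, 186, 162 and 173 in whole marrow. In AML the lowest value was 156, the median 231 and the highest 400. All 7 AML libraries were below every lineage-negative library, and 5 of 7 were above every whole marrow library. Its mean in AML, 254 ± 90.8 (n = 7, SD), was 24.1% of the lineage-negative mean of 1055 ± 222 (n = 4, SD). Meis1 fell by 2.10 on the log2 scale against lineage-negative marrow (SE 0.25, adjusted p = 9.36e-07 by limma) and by 2.09 with TMM. Against whole marrow, where the mean was 162 ± 24.3 (n = 4, SD), the log2 difference was 0.58 (adjusted p = 0.0463), under the fold threshold, and −0.11 with TMM (adjusted p = 0.713).

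The PBX genes, whose proteins are the shared partners of HOX and MEIS proteins, were called in no comparison. Pbx2 (ENSMUSG00000034673, chromosome 17, 34810240 to 34816374, plus strand) had a mean of 1419 ± 260 in AML (n = 7, SD), 1058 ± 302 in whole marrow (n = 4, SD) and 883 ± 135 in lineage-negative marrow (n = 4, SD). All 7 AML libraries, from 1087 to 1909, were above the 4 lineage-negative libraries, from 728 to 1036, at a log2 difference of 0.68 (SE 0.20, adjusted p = 0.00846 by limma) that stayed under the fold threshold of 1. Between AML and whole marrow the direction of Pbx2 turned with the scaling, from 0.45 (adjusted p = 0.0523) to −0.24 with TMM (adjusted p = 0.168). The neighbouring gene Gpsm3 shares 227 exonic bases with Pbx2, 6.24% of its exonic length, on the same strand. Gpsm3 had 2097 ± 443 normalized counts in AML (n = 7, SD) and 485 ± 155 in lineage-negative marrow (n = 4, SD), a log2 difference of 2.14 (adjusted p = 1.10e-07 by limma), and its part in the value of Pbx2 was not tested.

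Pbx3, the family member most often named beside HOXA9 in leukaemia, had overlapping ranges in all groups. Pbx3 (ENSMUSG00000038718, chromosome 2, 34061469 to 34263154, minus strand) had 105 to 163 normalized counts in AML, 80.8, 111, 111 and 161 in whole marrow, and 86.2, 74.0, 116 and 109 in lineage-negative marrow. The AML range overlapped both others. Its log2 difference was 0.39 (SE 0.24, adjusted p = 0.189 by limma) from lineage-negative marrow and 0.15 (SE 0.24, adjusted p = 0.592) from whole marrow, the latter −0.54 with TMM (adjusted p = 0.0435), under the fold threshold.

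Nkx2-3 was close to the limit of detection in AML. Nkx2-3 (ENSMUSG00000044220, chromosome 19, 43600764 to 43604331, plus strand) had 39.9, 37.0, 21.2 and 14.4 normalized counts in lineage-negative marrow. In AML 6 of 7 libraries were at or under the floor, 3 of them at 0, and the seventh had 6.61. All 7 AML libraries were below every lineage-negative library. Since the gene entered the fit through the lineage-negative libraries, it had to differ there, and no test of that comparison is given. With the AML mean set to the mean floor of 3.31, the lineage-negative mean of 28.1 ± 12.3 (n = 4, SD) was 8.49-fold higher. Whole marrow had 10.8, 2.68, 7.30 and 2.73, where background would give 3.96 to 7.48, and 2 of its 4 libraries were at or under the floor too. In AML Nkx2-3 was called lower than in whole marrow (log2 difference −1.67, adjusted p = 0.0162, and −2.19 with TMM, adjusted p = 0.00755). Without whole marrow replicate 1 this was −1.35 (adjusted p = 0.0760), without replicate 3 it was −1.52 (adjusted p = 0.0501), and with background subtracted it was −0.17 (adjusted p = 0.808).

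Counted together, 2 of the 9 genes were called higher in AML than in whole marrow (Hoxa7 and Hoxa9), where 27.3% of all genes tested were called higher, and 1 lower (Nkx2-3), where 11.3% were. With TMM 1 was higher, Hoxa7, against 4.73% of all genes, and 1 lower, against 16%. With background subtracted 4 were higher (Hoxa3, Hoxa5, Hoxa7 and Hoxa9) and 0 lower. Shares of all genes called with that subtraction are not given here. Counts made with it, here and for the lists below, therefore cannot be set against such a share. Without AML replicates 5 and 6, or without whole marrow replicate 4, 1 was higher, and without whole marrow replicate 1 or replicate 3 none was lower. Against lineage-negative marrow 0 were called higher, where 17.7% of all genes were, and 5 lower (Hoxa5, Hoxa9, Hoxa10, Meis1 and Nkx2-3), where 12.5% were. Nkx2-3 entered the fit through the group where it is high, and the other 8 genes held 4 calls. With TMM the members' counts were 0 and 5 too, against 17.6% and 12.4% of all genes, and with background subtracted 4 were lower. At an unadjusted p under 0.05 the count of higher genes in that comparison was 1, Pbx2. Groups did not overlap for 3 of those 4, Hoxa5 being the exception, against 17.6% of all genes with AML wholly below. AML lay wholly above lineage-negative marrow for Pbx2, against 17.0% of all genes, and wholly above whole marrow for Hoxa7, against 35.8%. The median log2 difference of the 9 genes was 0.42 against whole marrow and −1.28 against lineage-negative marrow, beside 0.67 and 0.02 over all genes tested. Both comparisons share the AML libraries.

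The normal groups set the scale for these differences. In lineage-negative against whole marrow 6 of the 9 were called higher (Hoxa5, Hoxa7, Hoxa9, Hoxa10, Meis1 and Nkx2-3), where 33.1% of all genes were, and 0 lower, where 17.2% were. Nkx2-3 entered the fit through the lineage-negative libraries, so its call there was favoured, and the other 8 genes held 5 calls. With the deposited scaling no member was lower at an unadjusted p under 0.05. Pbx2 and Pbx3 differed by −0.22 and −0.24 with that scaling (adjusted p = 0.391 and 0.436 by limma), and by −0.93 and −0.94 with TMM (adjusted p = 6.24e-05 and 0.00203), under the fold threshold. Without whole marrow replicate 1 Pbx2 was at −0.44 (adjusted p = 0.0446) with the deposited scaling. The largest log2 differences of the 9 were 2.68 for Meis1, 2.67 for Hoxa9 and 2.44 for Hoxa7, and their calls held with TMM at 1.98, 1.98 and 1.75. With TMM Hoxa5, Hoxa10 and Nkx2-3 were not called, at 1.05 (adjusted p = 0.0500045), 0.73 (adjusted p = 0.297) and 1.53 (adjusted p = 0.0605), so the count was 3 against 11% of all genes. Hoxa10 had an adjusted p of 0.0368 with the deposited scaling, and from 0.0544 to 0.0774 without any of 6 of the 8 normal libraries, 3 of each group.

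**Figure D2:**
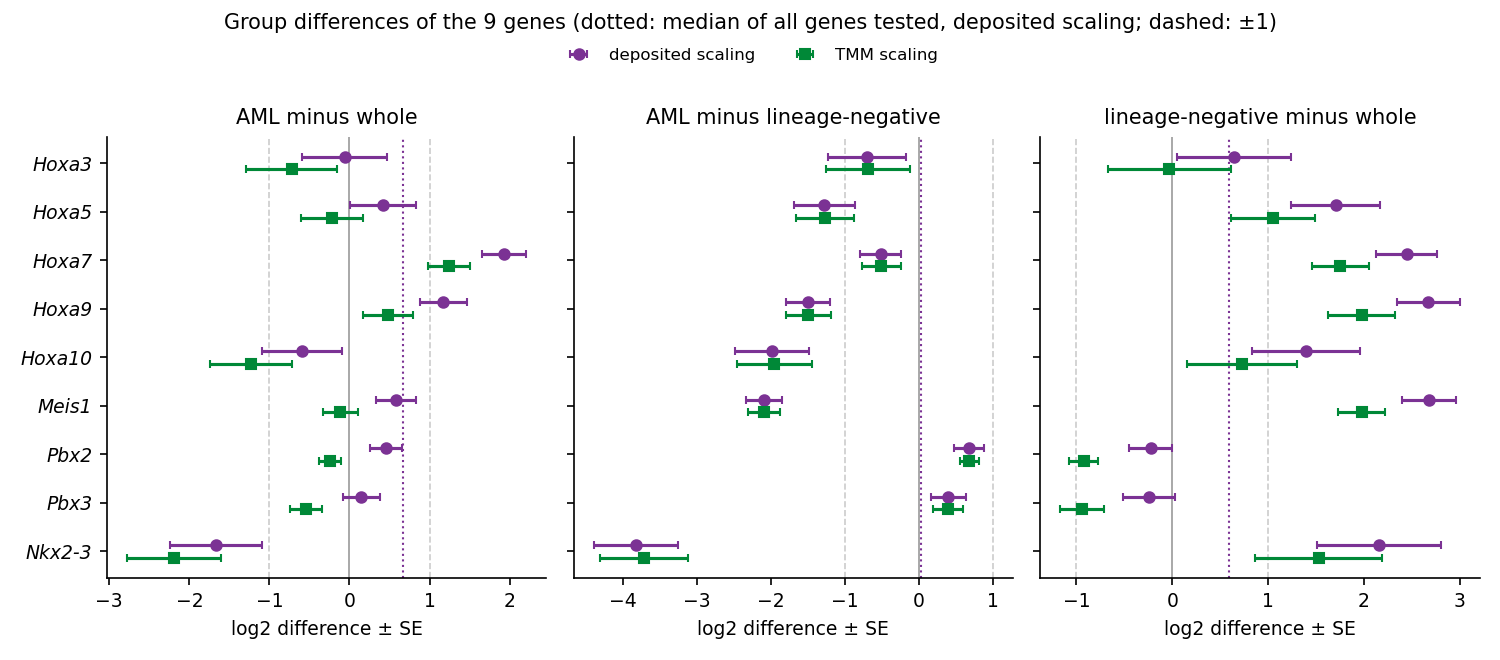
Log2 differences with SEs (x axis) of the 9 genes (y axis) in the 3 group comparisons, with the deposited scaling in purple circles and TMM in green squares. Differences against whole marrow lie further left with TMM for every gene shown, while those between AML and lineage-negative marrow hardly move.

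Along the Hoxa cluster the level peaked at Hoxa7 and Hoxa9 in all 3 groups. Levels per kb of exon were divided by the joined length of all annotated exons, which may differ from the length of the transcripts made. Comparison between genes depends on that length. On this scale Hoxa7 had 52.2 ± 16.9 normalized counts in AML (n = 7, SD), 13.3 ± 4.67 in whole marrow (n = 4, SD) and 72.2 ± 13 in lineage-negative marrow (n = 4, SD). Hoxa9 had 25.9 ± 9.38, 11.1 ± 3.34 and 69.7 ± 11.7 per kb in the same order. So the levels of Hoxa7 and Hoxa9 per kb lay within their SDs of each other in both normal groups, and in AML Hoxa7 was above Hoxa9. Undivided counts of Hoxa7 and Hoxa9 were 150 and 144 in AML, 38.3 and 61.8 in whole marrow and 208 and 389 in lineage-negative marrow. On the flanks Hoxa5 had 8.48 per kb in AML and 20.1 in lineage-negative marrow, and Hoxa10 3.33 and 11.2. Toward the ends Hoxa11 and Hoxa13 were at or under the floor in all AML and all lineage-negative libraries, while whole marrow had 2.27 and 1.52 per kb, within or below the range of its background. Of the 19 other rows in the cluster 3 passed the filter (Hoxaas2, Hoxaas3 and 5730596B20Rik) and none was called between any groups with the deposited scaling.

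Hoxa7 and Hoxa9 together made up 79.9 ± 7.32% of the summed counts of the 11 protein-coding Hoxa genes in AML (n = 7, SD), 58.7 ± 6.19% in whole marrow (n = 4, SD) and 82.1 ± 2.44% in lineage-negative marrow (n = 4, SD). Their split differed in value: Hoxa9 alone was 39.1 ± 8.62% of the sum in AML and 53.4 ± 4.45% in lineage-negative marrow (SD, n = 7 and n = 4). The sums were 365 ± 103 normalized counts in AML, 169 ± 19.5 in whole marrow and 725 ± 81.3 in lineage-negative marrow. These shares are descriptions and were not tested.

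**Figure D3:**
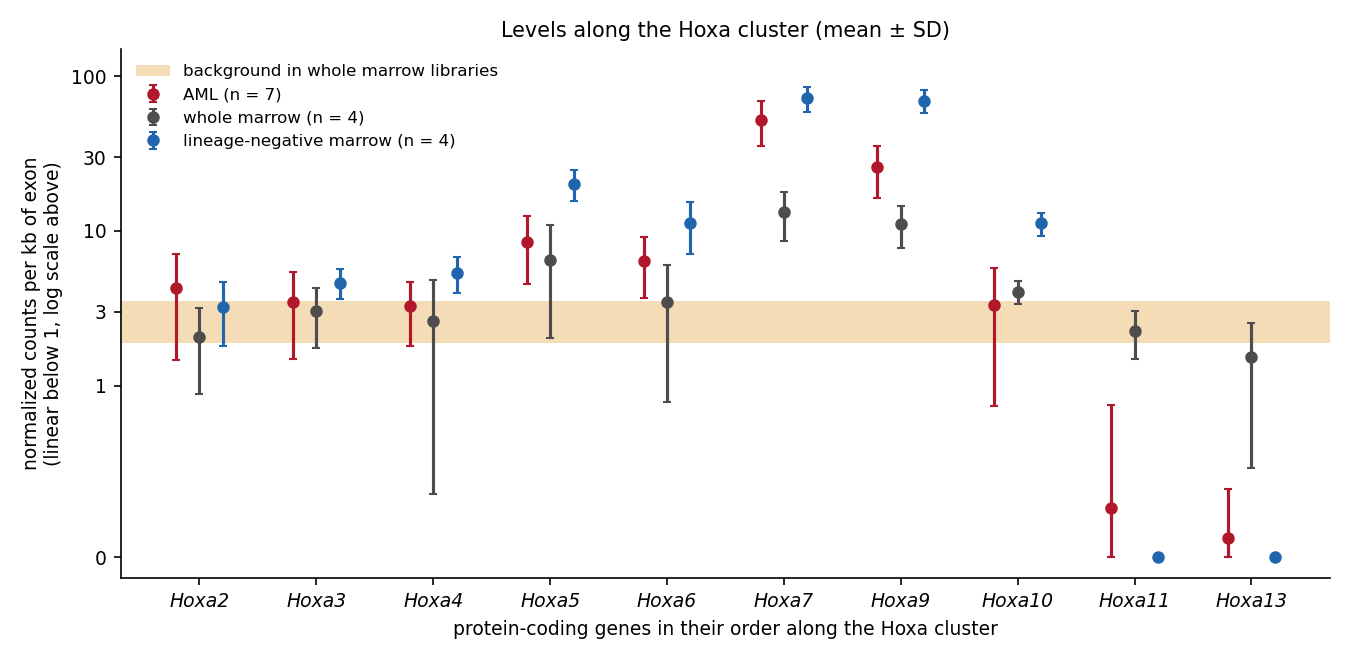
Mean normalized counts per kb of exon with SDs (y axis, linear below 1 and logarithmic above) for 10 of the 11 protein-coding Hoxa genes in their order along the cluster (x axis), by group, with the per-kb background of the whole marrow libraries as a band. AML follows lineage-negative marrow at Hoxa7, at 52.2 against 72.2, and lies lower at Hoxa9, at 25.9 against 69.7.

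Ratios of gene pairs within a library do not depend on its size factor, apart from the 1 added to each value before the ratio was taken. They were compared between groups by exact permutation tests. The added 1 weighs most on low values, such as those of Hoxa10 in AML. The log2 ratio of Hoxa7 to Hoxa9 was 0.08 ± 0.38 in AML (n = 7, SD), −0.68 ± 0.67 in whole marrow (n = 4, SD) and −0.90 ± 0.33 in lineage-negative marrow (n = 4, SD). In the lineage-negative libraries it was −0.43, −0.96, −1.02 and −1.21. In AML it ran from −0.72 through a median of 0.20 to 0.38, and 6 of 7 AML libraries were above every lineage-negative library. The difference was 0.98 (exact two-sided permutation p = 0.00606, 0.0727 after adjustment over the 12 ratio tests), which missed the threshold of 0.05. The smallest p that 330 splits allow is 0.00303. Against whole marrow the difference was 0.76 (exact permutation p = 0.0333, adjusted 0.1).

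The ratio of Hoxa10 to Hoxa9 was lower by 1.76 in AML than in whole marrow, a difference of −1.76 (exact permutation p = 0.0182, adjusted 0.1), with whole marrow Hoxa10 near background. From lineage-negative marrow, at −3.37 ± 0.11 (n = 4, SD), AML at −3.86 ± 1.09 (n = 7, SD) differed by −0.48 (exact permutation p = 0.415, adjusted 0.554). The ratio of Meis1 to Hoxa9 was 0.83 ± 0.50 in AML (n = 7, SD), 1.42 ± 0.52 in whole marrow (n = 4, SD) and 1.43 ± 0.21 in lineage-negative marrow (n = 4, SD). AML differed from lineage-negative marrow by −0.60 (exact permutation p = 0.0515, adjusted 0.124), with 5 of 7 libraries below. For Pbx3 to Pbx2 the 3 differences ran from −0.30 to −0.02, with exact permutation p of 0.255 to 0.971. Between the normal groups, where 70 splits allow no p under 0.0286, the ratio of Hoxa10 to Hoxa9 reached that p, with adjusted p = 0.1. None of the 12 ratio tests passed after adjustment.

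**Figure D4:**
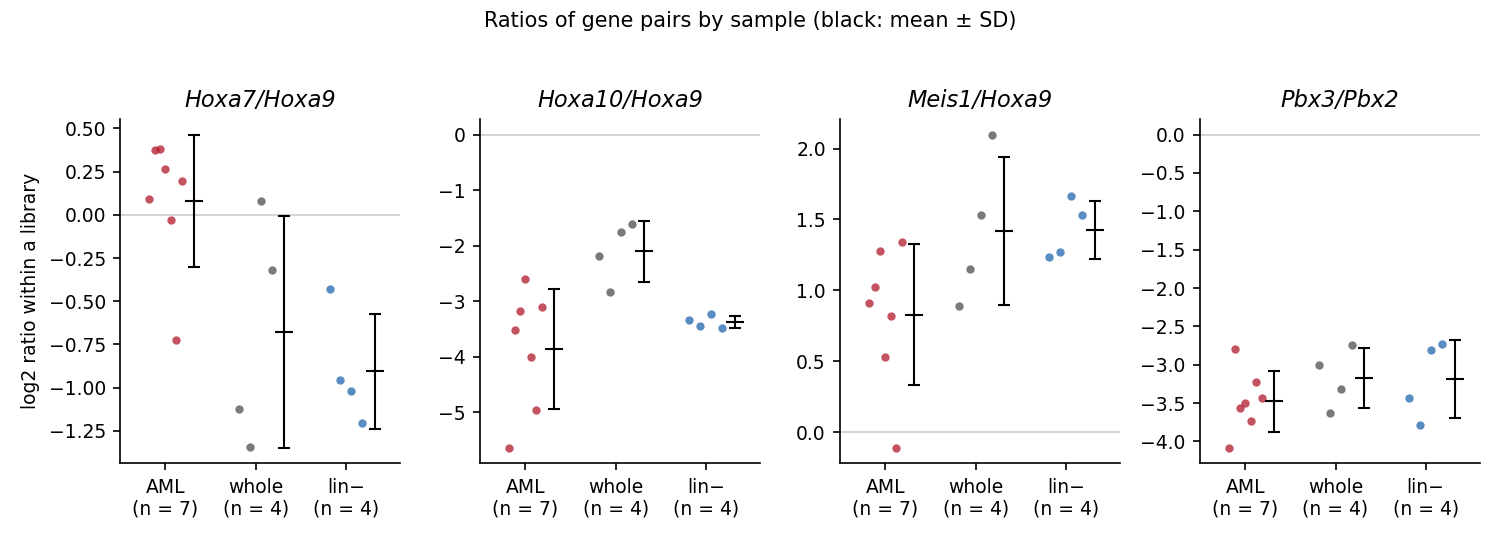
Log2 ratio of 4 gene pairs within each library (y axis) by group (x axis), with means and SDs in black. For Hoxa7 to Hoxa9, 6 of the 7 AML points lie above all lineage-negative points, and the lowest AML point, at −0.72, is replicate 6.

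The 7 AML marrows differed among themselves. Replicate 3 had the lowest AML value of Hoxa5, Hoxa7, Hoxa9, Meis1 and Pbx3, and replicate 5 the highest of Hoxa7, Hoxa9, Meis1 and Nkx2-3. The SD as a percentage of the mean was 73.5% for Hoxa10, 57.1% for Hoxa3, 46.7% for Hoxa5, 36.3% for Hoxa9, 35.8% for Meis1, 32.4% for Hoxa7, 18.9% for Pbx3 and 18.4% for Pbx2. Counting error is larger for the first 3, which have means of 10.9 to 20.9. Over the 7 AML libraries the correlation of log2 values with Hoxa9 was highest for Hoxa7, with Pearson's r of 0.757 (exact permutation p = 0.0464, adjusted over 6 relations 0.279) and Spearman's rho of 0.607 (exact permutation p = 0.167, adjusted 0.662). Without replicates 3 and 5, the farthest from the median of Hoxa9, r was −0.04 over a narrower range of Hoxa9, so the relation rests on those samples. Without replicate 6 instead, r was 0.972 (exact permutation p = 0.0167 after adjustment). For Meis1 r was 0.589 (exact permutation p = 0.159, adjusted 0.478) and rho 0.536 (exact permutation p = 0.236, adjusted 0.662), and r was −0.41 without those replicates. The other 4 had r from 0.133 to 0.366 and rho from 0.214 to 0.393, with exact permutation p of 0.396 or more, 0.651 or more after adjustment.

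The genes with the pattern most like Hoxa9 over all 15 samples, among 10383 genes whose mean was 100 or more, were Ncs1 (Pearson's r 0.969), Afap1l1 (0.960) and Anxa9 (0.957). Ncs1, which encodes a neuronal calcium sensor, had 69.3 ± 32.3 normalized counts in AML (n = 7, SD), 22.2 ± 2.82 in whole marrow (n = 4, SD) and 238 ± 52.8 in lineage-negative marrow (n = 4, SD). Among those most like Meis1 were Pank1 (0.972), a kinase of coenzyme A synthesis, and Tsen15 (0.970), a subunit of the tRNA splicing endonuclease. Pank1 had 211 ± 71.6, 133 ± 28.4 and 692 ± 24.8 in the same order of groups. These values describe the order of the groups, which the 15 points share.

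Among other TALE genes and Nkx2 genes, 8 of 14 listed passed the filter. Meis2 passed it only through the whole marrow libraries and Meis3 only through AML, the groups where they are high. The call of Meis2 against whole marrow and both calls of Meis3 were favoured by that, and they are counted below without being support. Of the 8 genes, 2 were called higher in AML than in whole marrow (Meis3 and Tgif1), beside the 27.3% of all genes, and 1 lower (Meis2), beside 11.3%. With background subtracted 4 were higher and 0 lower. With TMM 0 were higher and 2 lower, and 0 were higher without AML replicate 3 or without whole marrow replicate 1. The count was 1 without AML replicate 2, 5 or 6, without AML replicates 5 and 6 together, or without whole marrow replicate 3. Against lineage-negative marrow 3 were higher (Meis2, Meis3 and Pknox2), beside 17.7% of all genes, and 2 lower (Pbx4 and Tgif2), beside 12.5%, with the same counts under TMM and 2 higher with background subtracted. Pknox2, a TALE gene of the PREP group, had 46.9 ± 16.3 normalized counts in AML (n = 7, SD), 68.4 ± 27 in whole marrow (n = 4, SD) and 1.13 ± 1.72, under the floor, in lineage-negative marrow (n = 4, SD). Meis3 had 34.4 ± 21.5, 11.7 ± 4.23 and 4.90 ± 3.45 in that order. Pbx4 went the other way, with 26.2 ± 13.3 in AML against 133 ± 19.9 in lineage-negative marrow, a log2 difference of −2.44. Meis2, named despite a mean under 20, had 35.3 ± 8.58 in whole marrow (n = 4, SD), where background would give 22.6 to 42.6, and 5.15 ± 4.91 in AML (n = 7, SD), where background would give 1.45 to 12. The median log2 difference of the list from lineage-negative marrow was 0.44.

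A list of 16 genes described as targets of HOXA9 and MEIS1 held more falls than rises against lineage-negative marrow. In AML 8 of the 16 were called lower than in lineage-negative marrow (Myb, Cd34, Lmo2, Sox4, Myc, Trib2, Ccl3 and Cdk6), beside 12.5% of all genes, and 2 higher (Igf1 and Syk), beside 17.7%, with the same counts under TMM and a median log2 difference of −1.06. Myb, a transcription factor of progenitors, had 2700 ± 1131 normalized counts in AML (n = 7, SD) and 13998 ± 1511 in lineage-negative marrow (n = 4, SD), a log2 difference of −2.46. Cdk6, a cell cycle kinase, had 5459 ± 2109 and 21684 ± 2650, and Sox4, a transcription factor of immature cells, 715 ± 429 and 3122 ± 602. All 3 were below every lineage-negative library in all 7 AML libraries. Against whole marrow 4 were called higher (Flt3, Bcl2, Cd34 and Myc), beside 27.3% of all genes, and 2 lower (Igf1 and Trib2), beside 11.3%. With TMM 2 were higher, Flt3 at 2.63 and Bcl2 at 1.15, and 3 lower, and without whole marrow replicate 1 there were 2 higher. Bcl2, which restrains apoptosis, had 1838 ± 468 normalized counts in AML (n = 7, SD), 513 ± 144 in whole marrow (n = 4, SD) and 2975 ± 436 in lineage-negative marrow (n = 4, SD). Flt3 encodes the receptor whose mutated form is part of the genotype, and whether reads of that form are counted in it was not analysed here. Between the normal groups 10 of the 16 were called higher in lineage-negative marrow, beside 33.1% of all genes, and 1 lower, beside 17.2%. The stem and progenitor markers Kit, Cd34, Gata2, Hlf and Mecom were also called lower in AML than in lineage-negative marrow, 5 of 7, beside 12.5% of all genes. Ly6a was called higher, beside 17.7%. The part of cell composition in the values of the targets was not tested.

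**Figure D5:**
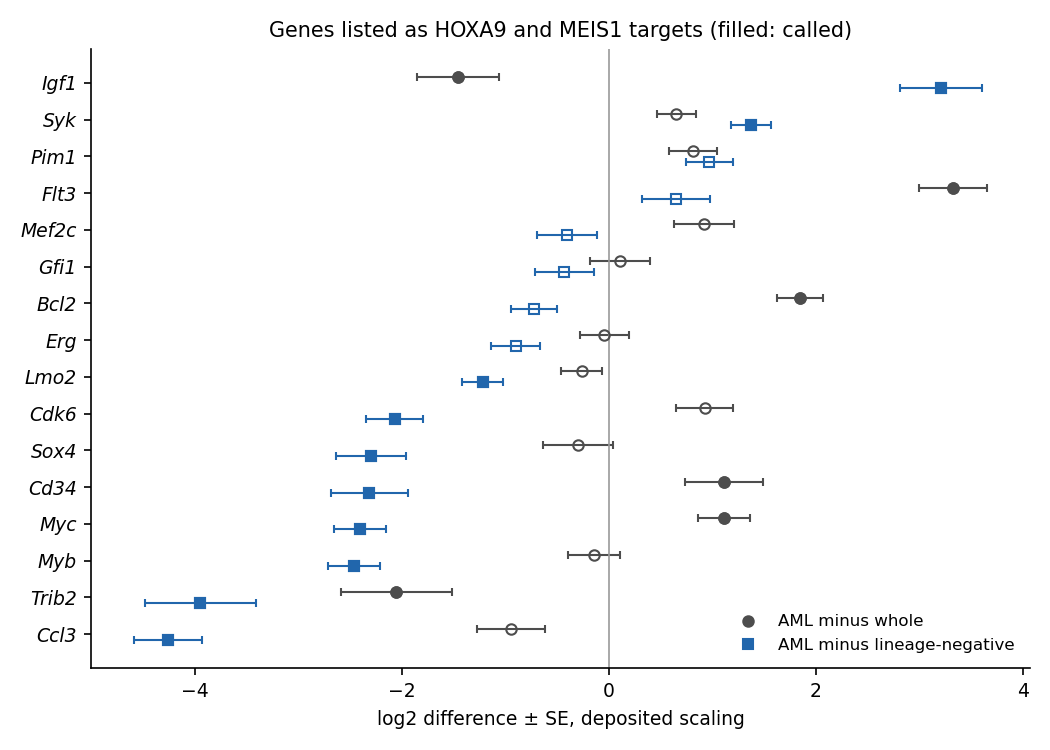
Log2 differences with SEs (x axis) of the 16 genes listed as HOXA9 and MEIS1 targets (y axis), for AML minus whole marrow (grey circles) and AML minus lineage-negative marrow (blue squares), with filled symbols for calls. Of the blue squares 8 are filled left of 0 and 2 right of it.

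Of 18 genes listed as regulators of Hox transcription, 16 passed the filter. Against lineage-negative marrow 2 were called lower in AML, Psip1, whose product tethers menin and KMT2A to chromatin, and Mllt3, a subunit of elongation complexes, and 0 higher. The 2 calls among 16 tested genes stand beside 12.5% of all genes. Psip1 had 1269 ± 241 normalized counts in AML (n = 7, SD) and 2878 ± 490 in lineage-negative marrow (n = 4, SD), a log2 difference of −1.19. Mllt3 had 253 ± 127 and 655 ± 137, a log2 difference of −1.49. Against whole marrow 1 was higher with the deposited scaling (Kmt2a, 1.13), beside 27.3% of all genes, and 0 lower, with 2 higher after background subtraction, and with TMM 0 were higher and 2 lower, Psip1 at −1.0 and Mllt3 at −1.38. Without whole marrow replicate 4 the count of higher genes was 6, without whole marrow replicate 1 it was 0, and without AML replicate 3, 5 or 6, or 5 and 6 together, it was 2. The median log2 difference of the list was 0.80 against whole marrow, beside 0.67 over all genes tested.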

How the data were processed

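Total RNA of 15 marrow samples was extracted with TRIzol, and libraries were made with the kit TruSeq Stranded Total RNA (labels' protocols). The submitters' processing notes name Partek, STAR, DESeq2 and the build mm10, with no roles or versions. The table holds signal values that the authors made by dividing estimated counts by 1 size factor per library, of the poscounts type per the name of the deposited table. They are called normalized counts. Between 85.1% and 89.3% of low values in a library were whole multiples of 1 read (tolerance 0.02), so whole reads were not recovered, and depth was estimated from that step. Floors of 3 reads cover counting error only.

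Only 861 of 38066 matched genes start where a GRCm38 annotation (GENCODE M21) places them, although 37557 have the same span length, so coordinates of genes are printed as in the table, whose build is not given in the sources used here. The annotation served for exonic lengths and overlaps, by gene identifier. The exonic length of a gene joined all its annotated exons. Upstream sequences are from RefSeq and carry their own build.

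Genes with at least 10 normalized counts in at least 4 samples entered 1 limma fit of 3 group means on log2(value + 1), with a mean-variance trend (limma 3.58.1, R 4.3.3), two-sided, with Benjamini-Hochberg adjustment over 18941 genes. Differences are on that log2(value + 1) scale, which understates the change of low genes. Calls required an adjusted p below 0.05 together with a log2 difference of 1 or more in either direction. The fit was also tested on simulated data. The 12 ratio tests and the 6 correlations used log2(value + 1) and exact permutations. Replicate numbers were not used to pair the samples, since the labels do not say whether same-numbered samples share a mouse.

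The alternatives were TMM and quantile scaling, pseudocounts of 0.1 and 5, no filter, a mean of at least 50, voom on estimated reads, each pair of groups alone, a replicate block, subtraction of the olfactory and vomeronasal receptor signal per kb of exon, removal of AML replicates 5 and 6, and leaving out each library. All 9 members are named. Of the lists, the genes named were called in a comparison with AML and had a mean of at least 20, at most 6 per list and comparison with exceptions stated, and genes whose role the text needs. Some results that this rule would name are not reported here. The members, the lists and the tests were chosen with earlier results of these data known, and the target and regulator lists are from general knowledge.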

Additional observations from a re-analysis of the deposited data

Results flagged for a closer look

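In 4 of 39 sets of values, each of a gene or ratio in 1 group, a single library lay far from the others by Dixon's criterion, which flags about 1 in 20 by chance. Hoxa5 was 30.2 normalized counts in AML replicate 7, where the other AML libraries had 7.35 to 16.9. Hoxa7 was 58.4 in whole marrow replicate 3, where the other whole marrows had 31.1 to 32.2. Nkx2-3 was 6.61 in AML replicate 5, where the others had 0 to 1.69, all under the floor. The log2 ratio of Hoxa7 to Hoxa9 was −0.72 in AML replicate 6, where the others had −0.03 to 0.38. Replicate 6 had the highest olfactory and vomeronasal receptor signal of the AML libraries, 0.996 normalized counts per kb of exon, which would give Hoxa9 5.56 of its 184 normalized counts there.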

How the results depend on the processing

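Members called higher in AML than in whole marrow numbered 2, and 1 with TMM, quantile scaling, voom, the replicate block or without AML replicates 5 and 6, 4 with background subtracted, and 1 to 2 when each library was left out. Members called lower there numbered 1, and 0 with quantile scaling, a pseudocount of 5, a mean of at least 50 or background subtracted, and 0 to 1 with libraries left out. Members lower than lineage-negative marrow numbered 5 with Nkx2-3 included, 4 with background subtracted, 2 with a mean of at least 50, and 4 to 5 with libraries left out. Members higher in lineage-negative than in whole marrow numbered 6 with Nkx2-3 included and 7 with background subtracted. They numbered 5 with voom, 3 with TMM or a mean of at least 50, and 5 to 6 with libraries left out. The mean filter leaves Hoxa3, Hoxa5, Hoxa10 and Nkx2-3 untested. For the scalings and the block the cause was not tested.

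Log2 differences of AML against whole marrow changed sign as follows. Hoxa3 was 0.064 with quantile scaling, 0.021 with a pseudocount of 5, 0.28 with the block, 1.92 with background subtracted, 0.23 without AML replicates 5 and 6, and −0.25 to 0.33 with libraries left out. With TMM, quantile scaling and voom, Meis1 was −0.11, −0.20 and −0.074, Pbx2 −0.24, −0.29 and −0.24, and Pbx3 −0.54, −0.58 and −0.55 (−0.01 to 0.32 with libraries left out, −0.0080 without whole marrow replicate 1). Hoxa5 was −0.22 with TMM and −0.22 with voom, and Hoxa10 0.48 with background subtracted. Hoxa3 in lineage-negative against whole marrow was −0.030 with TMM.

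The ratio of Meis1 to Hoxa9 between the normal groups was −0.0050 with a pseudocount of 0.1 and −0.17 to 0.23 with libraries left out, that of Hoxa7 to Hoxa9 −0.45 to 0.026, and that of Pbx3 to Pbx2 −0.17 to 0.18. With each AML library left out, r with Hoxa9 ran from 0.454 to 0.972 for Hoxa7, −0.36 to 0.619 for Hoxa5, −0.16 to 0.472 for Pbx2 and −0.14 to 0.637 for Pbx3.

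Replicate numbers are shared by title only. Correlations of deviations between same-numbered samples ran from −0.288 to 0.172, which cannot exclude that normal samples of a number came from the same mouse. With the block Hoxa9 against whole marrow was 0.87, under the fold threshold. Depth limits Hoxa3, Hoxa5, Hoxa10 and Nkx2-3, whose levels lie near the 3-read floor or near background in some libraries, and a change there may be undetectable.

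Over all genes, calls of AML against whole marrow went from 5167 higher to 896 with TMM, 2474 with quantile scaling, 757 with voom and 3179 without whole marrow replicate 1, and from 2132 lower to 11289 with no filter, 460 with the mean filter and 1177 with background subtracted. For lineage-negative against whole marrow, 6266 higher became 2075, 4133 and 2080 with the 3 scalings, and 3259 lower became 12497 with no filter, 1244 with the mean filter and 2141 with background subtracted. For AML against lineage-negative marrow, 3359 higher became 2225 with the mean filter.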

Other observations

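Of 27 listed Hoxb, Hoxc and Hoxd genes 4 passed the filter on low values. Hoxb4, a gene known for expanding blood stem cells, had 147 ± 19.2 normalized counts in AML (n = 7, SD), 64.5 ± 10.2 in whole marrow (n = 4, SD) and 94.3 ± 25.1 in lineage-negative marrow (n = 4, SD). It was called higher in AML than in whole marrow (log2 difference 1.18), with all 7 AML libraries above, but not with TMM (0.49). Hoxb8 and Hoxc9, named although their means are under 20, passed the filter only through the whole marrow libraries, so their values are given without a test. Hoxb8 had 15.7 ± 4.13 normalized counts in whole marrow (n = 4, SD), where background would give 4.95 to 9.33, 1.59 ± 2.11 in AML (n = 7, SD) and 0 in all 4 lineage-negative libraries. Hoxc9 had 14.4 ± 2.31 in whole marrow (n = 4, SD), with a background of 4.56 to 8.60, and was also at 0 in lineage-negative marrow.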
